A study of Mus musculus with 2 samples.

Results

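Deep-layer glutamatergic nuclei marked by Cobll1 and Thsd7b were described in entorhinal cortex of APP/PS1 mice. They were chosen in 2 steps from 12918 sequenced nuclei. A gate kept nuclei with at least 6000 unique molecular identifiers (UMIs, each marking 1 captured RNA molecule), at least 2 UMIs of the vesicular glutamate transporter Slc17a7, and at most 3 UMIs of the GABA-synthesizing enzymes Gad1 and Gad2 together, which left 3844 nuclei. Of these, 366 nuclei were taken as members because their mean z-score over Cobll1, Sulf1, Thsd7b, Rai14 and Sfmbt2 was at least 1.0. The other 3478 gated nuclei served as the background.

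The study asked what long administration of OLE (N-oleoyl-leucine, C18:1-Leu in the labels), an N-acyl amino acid, does to the cells of a cortex with amyloid plaques. Both groups were male APP/PS1 mice 18 months old. In this line mutant transgenes, among them that of the amyloid precursor protein, are expressed from the mouse prion protein promoter. The first group received OLE at 25 mg/kg/day in alkaline drinking water from 15 months of age, and the other received the DMSO vehicle in the same water over the same months. Entorhinal cortex of 5 mice was pooled into 1 library of single nuclei per group, called Vehicle and OLE below, so that no difference between the groups has a replicate and no test was run. Genotype, sex and age did not vary between the groups, and no wild-type library was analysed here.

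Glutamatergic neurons of the deep cortical layers send the output of a cortical area to the thalamus, to other cortical areas and to subcortical targets. Layer 6 holds corticothalamic neurons, neurons that project within the telencephalon, and, along the white matter, the layer 6b neurons that remain from the embryonic subplate. Their identity is set in development by transcriptional regulators such as Tbr1, Fezf2, Bcl11b, Sox5 and Tle4, while Cux1, Cux2 and Rorb mark more superficial layers. The deep layers of the entorhinal cortex receive the output of the hippocampal formation and relay it to the neocortex.

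Among the rule genes, Cobll1 is related to the actin nucleator cordon-bleu, Sulf1 encodes an extracellular sulfatase that trims heparan sulfate, Thsd7b a membrane protein with thrombospondin repeats, Rai14 an actin-binding ankyrin-repeat protein, and Sfmbt2 a Polycomb-related chromatin protein. Cobll1 lies on chromosome 2 (65088339 to 65239403, minus strand, GRCm38) and Thsd7b on chromosome 1 (129273302 to 130219278, plus strand). Promoter windows of RefSeq were at hand for Cobll1, Thsd7b, Rai14 and Sfmbt2, from 250 bases before to 50 bases after an annotated start in GRCm38.p6. The windows of the genes that name the nuclei are shown because Nfia and Nfib, whose proteins bind the core TTGGC, were higher in these nuclei than in the other gated nuclei. Capitals mark that core on either strand, where the reverse strand reads GCCAA. The Cobll1 window is chr2:65238742-65239041 on the minus strand and the Thsd7b window chr1:129273054-129273353 on the plus strand, each written 5′ to 3′ along its gene.
Cobll1: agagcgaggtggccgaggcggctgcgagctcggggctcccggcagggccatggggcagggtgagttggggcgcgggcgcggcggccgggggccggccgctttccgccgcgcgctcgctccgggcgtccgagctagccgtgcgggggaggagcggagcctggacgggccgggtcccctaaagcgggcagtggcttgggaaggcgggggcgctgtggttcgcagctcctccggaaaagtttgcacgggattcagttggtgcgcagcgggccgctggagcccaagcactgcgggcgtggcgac
Thsd7b: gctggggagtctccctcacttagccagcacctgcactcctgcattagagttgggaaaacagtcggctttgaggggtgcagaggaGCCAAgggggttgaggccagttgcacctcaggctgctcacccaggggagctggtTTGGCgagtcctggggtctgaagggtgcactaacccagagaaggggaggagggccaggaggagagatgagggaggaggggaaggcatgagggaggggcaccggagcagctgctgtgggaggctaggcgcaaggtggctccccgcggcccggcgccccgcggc
The Thsd7b window held the core at bases 85 and 139, and the Cobll1 window did not hold it. The core was also in 1 of the Sfmbt2 windows and in neither window of Rai14. It occurred in 15344 of 32851 windows of the same length (46.7%), so its presence describes these letters and no binding. The Cobll1 window had a GC content of 75.3% and held 39 CpG dinucleotides, the Thsd7b window 66.0% and 10, beside a median GC content of 52.7% over all windows.

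The Vehicle library gave 179 member nuclei with 4007108 UMIs and the OLE library 187 with 3805698 UMIs. Their median depth was 18756 UMIs in Vehicle and 17516 in OLE, with a median of 4815 and 4736 genes per nucleus. Members made up 10.3% of the gated nuclei in Vehicle (exact binomial 95% interval 8.89 to 11.8) and 8.89% in OLE (7.71 to 10.2), a difference of -1.39 percentage points with an interval of -3.32 to 0.511. As a share of all nuclei they were 2.65% in Vehicle and 3.03% in OLE, a difference of 0.376 percentage points (-0.208 to 0.965). Neither share differed beyond counting error, which is all that these and the later intervals cover. No member barcode was among the 14 barcodes found in both libraries.

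**Figure D1:**
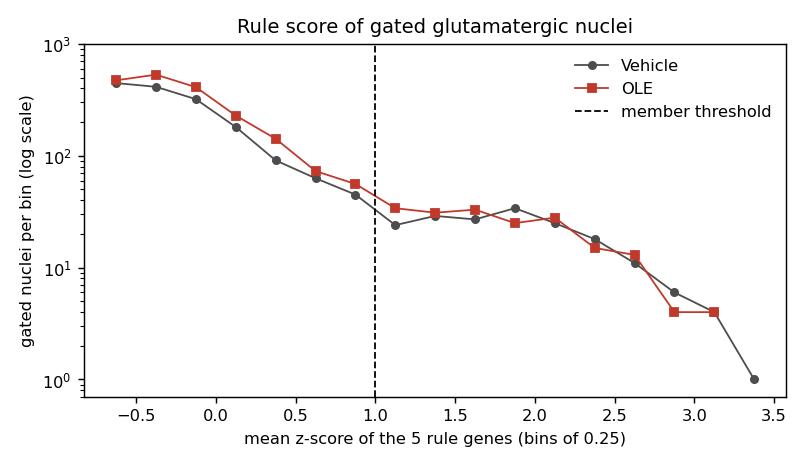
Number of gated nuclei (log scale) against the mean z-score of the 5 rule genes in bins of 0.25, with Vehicle as circles and OLE as squares. The counts drop toward the dashed threshold of 1.0 and form a shoulder beyond it that reaches 3.32 in Vehicle and 3.24 in OLE.

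The score ran on from the other gated nuclei without an empty range, as the plot of scores shows. Its median in members was 1.78 in Vehicle and 1.69 in OLE. Every member held UMIs of at least 3 of the 5 rule genes, and 191 of the 366 held all 5. Just inside the threshold, within 0.25 above 1.0, lay 58 nuclei, of which 67.2% had a Cobll1 UMI and 50% a Sfmbt2 UMI. Just outside it, within 0.25 below, lay 101 nuclei, of which 48.5% had a Cobll1 UMI and 38.6% a Sfmbt2 UMI. Nuclei on both sides carried Hs3st4, at 2860 UMIs per 1000000 inside and 2599 outside, so the threshold cuts through a continuous range.

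The rule genes, whose levels describe the choice and are no finding, differed in how sharply they marked members. Levels here and below are UMIs summed over the nuclei of a library, per 1000000 UMIs of that sum. Cobll1 stood at 356 in Vehicle and 317 in OLE members, against 11.6 and 11.7 in the other gated nuclei. Thsd7b stood at 1894 and 1751 against 173 and 182, with a median of 36 and 29 UMIs per member nucleus. Sulf1 was at 220 and 254 against 15.1 and 16.6, and Sfmbt2 at 129 and 116 against 14.3 and 13.5. Rai14 had the smallest contrast, at 260 and 267 against 41.1 and 40. A Cobll1 UMI was found in 91.6% and 86.6% of members and in 12.4% and 13.5% of the other gated nuclei. After thinning every nucleus to 6000 UMIs these shares were 77.1% and 72.2% against 6.34% and 8.35%. The unthinned median depth of the other gated nuclei was 22594.5 UMIs in Vehicle and 18031.5 in OLE.

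Since the members were picked by expression, their levels beside the other gated nuclei are given as description without a test. Over 12640 genes with at least 200 UMIs, 496 (3.92%) were at least 1.5-fold higher in members in both libraries and 1221 (9.66%) at least 1.5-fold lower. Outside the rule, Sema3c, a secreted semaphorin that guides axons, was 15.4-fold higher in Vehicle and 11.6-fold in OLE, at 83.1 and 75.7 per 1000000 in members. Lpar1, a receptor for lysophosphatidic acid, was 12.3-fold and 9.24-fold higher. Dkk2, a secreted modulator of Wnt signalling, was 10.8-fold and 9.83-fold higher, and Ror2, a receptor for Wnt ligands, 5.09-fold and 6.49-fold. Sema3c was found in 43.6% and 40.1% of members, Dkk2 in 31.8% and 26.2%, and Lpar1 in 59.2% and 60.4%, whereas other genes covered nearly all. Cntnap4, a neurexin-family adhesion protein, was found in 93.3% and 91.4% of members (8.08-fold and 7.47-fold higher), and Dlc1, a GTPase-activating protein, in 99.4% and 98.9% (5.03-fold and 5.43-fold).

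Hs3st4, which adds 3-O-sulfate to heparan sulfate, was found in 98.9% of members of both libraries. It stood at 3727 and 3436 per 1000000 against 652 and 619 in the other gated nuclei, and its median of 73 and 57 UMIs per member nucleus compares with 2 and 3. Nr4a2, a nuclear receptor that marks subplate-derived and claustral neurons, was at 148 and 181 against 23.1 and 29.2. The largest deficits were those of Fam19a1, a secreted chemokine-like protein, at 86.1 and 79.1 against 1477 and 1411, and of Crhr1, the receptor for corticotropin-releasing hormone, at 2.99 and 3.15 against 38.5 and 41.9. Thsd7a, the paralog of the rule gene Thsd7b, was at 9.98 and 11.8 against 123 and 129.

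**Figure D2:**
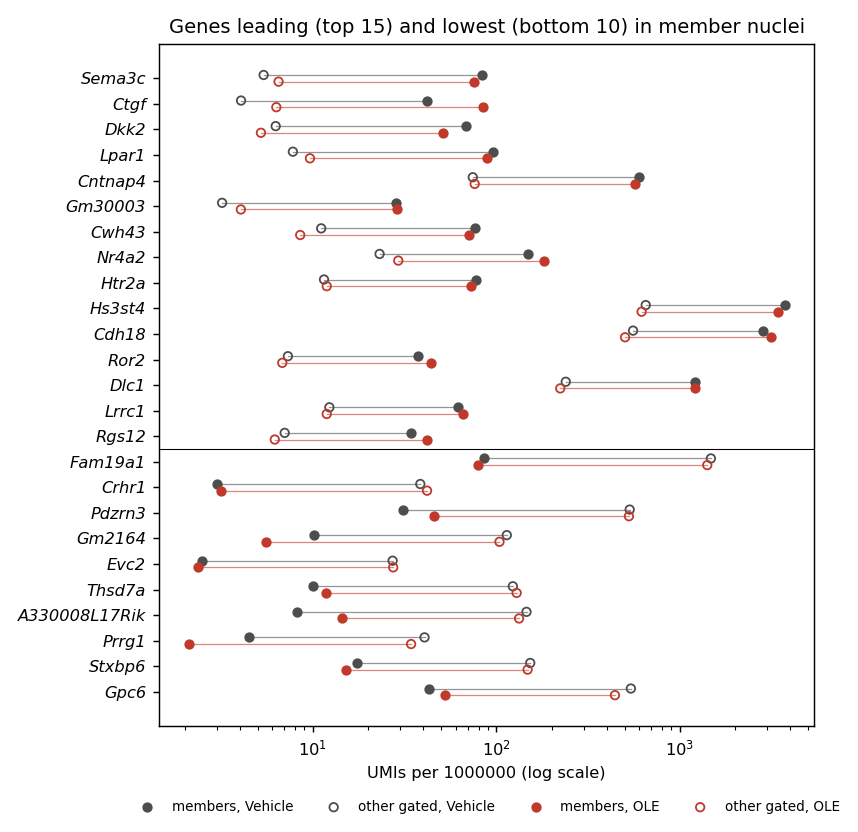
UMIs per 1000000 (log scale) of the 15 genes with the highest and the 10 with the lowest fold of members over other gated nuclei, rule genes left out. Filled points are members and open points other gated nuclei, dark for Vehicle and red for OLE, and the line between them is the fold. Genes were ranked by the library with the weaker contrast, so the same direction in both libraries for all 25 genes follows from the choice.

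The deep-layer label was checked against regulators and layer markers that the rule did not use. Of 11 deep-layer regulators, 8 were at least 1.5-fold higher in members and 1 lower, while 7 of 8 upper-layer regulators were lower and 0 higher. Tle4, a corepressor of layer 6, was 4.34-fold and 4.33-fold higher in Vehicle and OLE, and found in 98.9% and 96.8% of members. Nfia was 3.88-fold and 3.40-fold higher, Zfpm2, a cofactor of GATA proteins, 3.28-fold and 2.68-fold, and Foxp2 2.27-fold and 2.80-fold. Bcl11b, Nfib, Tbr1 and Fezf2 were also past 1.5-fold, and Bcl6 was lower. Cux2 stood at 11.7 and 21.8 per 1000000 in members against 162 in the other gated nuclei of both libraries, and Mef2c at 186 and 223 against 1203 and 1117.

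Markers of single projection classes were mixed. Of 9 corticothalamic markers, Hs3st4, Tle4, Foxp2 and Crym were higher and 1 other was lower. Syt6 was in neither group, at 9.73 and 10.5 per 1000000 beside 9.31 and 7.01 in the other gated nuclei. Of 5 measured layer 6b markers, Ctgf, Moxd1, Drd1 and Svil were higher. Ctgf was 10.3-fold and 13.3-fold higher yet found in only 20.1% and 21.9% of members. For near-projecting neurons 1 of 6 markers was higher and 5 were lower, and for layer 6 intratelencephalic neurons 2 of 7 were higher and 5 lower. Of 6 layer 5 intratelencephalic markers 3 were higher and 2 lower. Of 8 layer 5 extratelencephalic markers 4 were higher and 3 lower. Of 12 superficial-layer markers 9 were lower and 1, Mdga1, was higher (8.65-fold and 4.71-fold), and of 6 middle-layer markers 5 were lower and Plcxd3 was higher. The label deep-layer was therefore kept for the whole, and no projection class was given to it.

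A few nearby sets of gated nuclei, scored in the same way on a pair of genes each, show where the members lie. The nuclei scored on Foxp2 and Syt6 numbered 341, and 57 of them were members, which is 16.7% of that set and 15.6% of the members. Only 16 of the 405 nuclei scored on Htr2c and Dpp4 (3.95% of that set, 4.37% of the members) and 5 of the 369 scored on Stac and Vat1l (1.36% and 1.37%) were members. In the Foxp2 and Syt6 nuclei that were no members, Hs3st4 stood at 3259 per 1000000 in Vehicle and 3102 in OLE, Tle4 at 499 and 471, Cdh18 at 2591 and 2447, and Htr1f at 557 and 567, close to the values of the members. Sema3c was at 3 and 3.76 there, Lpar1 at 4.21 and 7.15, Htr2a at 3.91 and 7.15, and Nr4a2 at 12.9 and 24.5. The nuclei scored on Stac and Vat1l had Hs3st4 at 325 and 339 and Cdh18 at 319 and 297, below the members.

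Receptors and channels decide how a neuron answers its inputs. Of 24 receptors for monoamines, acetylcholine and peptides, 8 were higher and 8 lower. The serotonin receptor Htr1f, which couples to inhibitory G proteins, was at 612 and 630 per 1000000 against 130 and 122, and Htr2a, which couples to Gq, at 77.9 and 72.3 against 11.5 and 11.9. The mu-opioid receptor Oprm1 was 3.21-fold and 3.31-fold higher, the dopamine receptor Drd1 4.32-fold and 4.65-fold, and the nicotinic subunit Chrna7 2.04-fold and 1.71-fold. Crhr1, Npy1r, Htr4 and Chrm2 were among those lower. Of 23 glutamate receptor genes, 4 were higher and 5 lower. The kainate receptor subunits parted, with Grik3 at 579 and 601 against 132 and 130 and Grik4 2.48-fold and 2.13-fold higher, while Grik1 was at 19.2 and 9.99 against 136 and 119 and Grik2 at 709 and 629 against 1181 and 1132. Among 14 GABA receptor genes, Gabra5, a subunit of extrasynaptic receptors, was 2.80-fold and 2.24-fold higher and Gabra2 was at 0.316 and 0.303 of the level in the other gated nuclei.

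Potassium channels stood lower more often than higher, with 9 of 27 below and 1, Kcnn3, above. Kcnip4, a modulator of A-type channels, was at 3073 in Vehicle and 4064 in OLE against 11614 and 11106. Kcnb2, Kcnc2 and Kcnq5 were at least 1.5-fold lower too. Of 38 genes of synaptic adhesion and axon guidance, 5 were higher and 16 lower. Cdh18 was at 2832 and 3133 against 556 and 503 and Sema3e 3.40-fold and 3.25-fold higher, whereas Cdh8 was at 70.6 and 67.0 against 556 and 530 and Epha6 at 175 and 115 against 1366 and 1357. Of 25 heparan sulfate and matrix genes, which include the rule genes Sulf1 and Thsd7b, 6 were higher and 7 lower. Without those rule genes 4 of 23 were higher, namely Hs3st4, Hs3st2, Hs6st2 and Gpc3. The sulfotransferases differed within the list, with Hs3st4, Hs3st2 and Hs6st2 higher in members and Hs6st3 at 347 and 311 against 2590 and 2279. None of 20 genes of synaptic vesicles and release passed 1.5-fold.

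The members were not uniform. In a clustering of all gated nuclei that gave 32 clusters, 145 members made up 97.3% of a cluster led by Dkk2 and 70 made up all of another, so that 215 members (111 Vehicle, 104 OLE) sat where at least 90% of the nuclei were members. A further 56 sat in a cluster led by Ctgf, Pappa2 and Moxd1 (73.7% members), 47 in a cluster led by Sntb1 (53.4%), and 19 in a cluster led by Syt6 and Foxp2 (7.82%). The remaining members were spread over other clusters.

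Clustering of the members alone, with the rule genes left out, gave 7 clusters that are called by leading genes and whose defining levels are description. The largest 2 held 95 nuclei led by Trabd2b, Ephb1 and Dcc and 66 led by Sema3c, Prex2 and Mdga1. The next held 49 led by Sntb1, Kcnq5 and Galntl6, 48 led by Dkk2, Chst9 and Ror2, and 44 led by Ctgf, Pappa2 and Moxd1. The smallest held 39 led by Foxp2, Hs3st5 and Sema5b and 25 led by Ntng2, Gnb4 and Nell1. Each drew on both libraries, from 50 Vehicle and 45 OLE nuclei in the Trabd2b cluster to 11 and 14 in the Ntng2 cluster. The most uneven was the Foxp2 cluster, with 13 Vehicle nuclei (7.26% of members, interval 3.92 to 12.1) and 26 OLE nuclei (13.9%, 9.29 to 19.7), whose intervals overlapped.

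**Figure D3:**
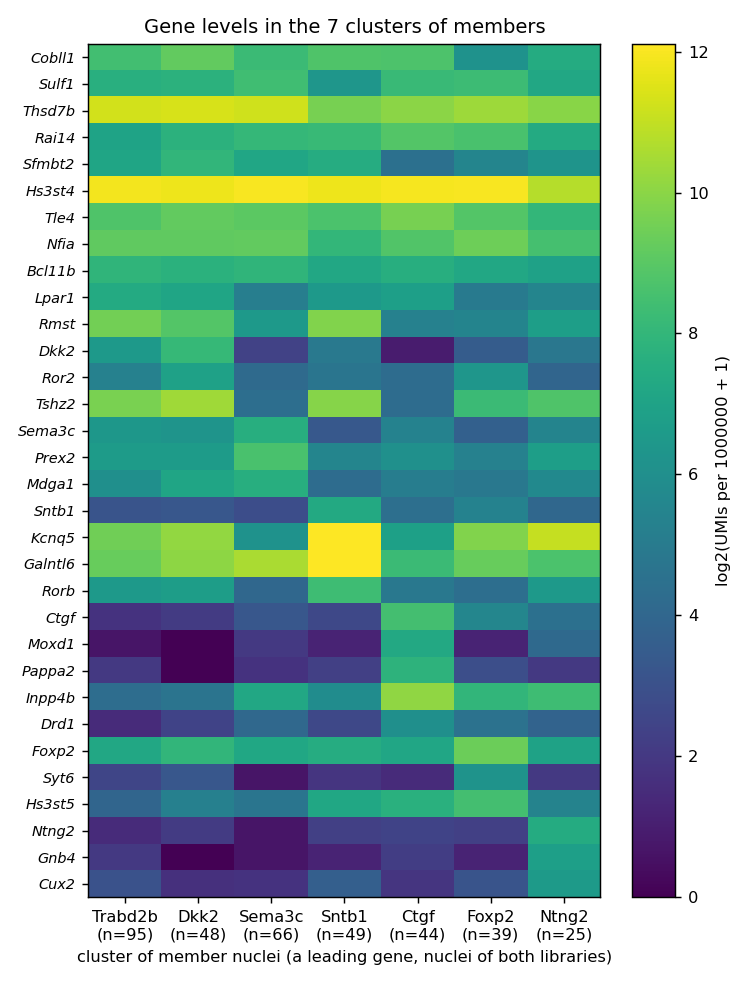
Levels of 32 genes in the 7 clusters of members, as log2(UMIs per 1000000 + 1) over both libraries, with clusters named by a leading gene and their number of nuclei. Hs3st4 and Thsd7b were present in all, while Dkk2, Sema3c, Ctgf, Foxp2 and Ntng2 each peaked in 1 cluster.

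Hs3st4 stood between 3558 and 4045 per 1000000 in 6 of the clusters and at 1749 in the Ntng2 cluster. Thsd7b was at 2444 to 2646 in the Trabd2b, Sema3c and Dkk2 clusters and at 779 to 1300 in the other 4. Cobll1 was lowest in the Foxp2 cluster, at 70.0, and highest in the Dkk2 cluster, at 586. Tshz2, a zinc finger gene, separated the clusters further, at 827, 959 and 1321 in the Trabd2b, Sntb1 and Dkk2 clusters but 19.8 and 18.6 in the Sema3c and Ctgf clusters.

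Layer 6b genes were concentrated in the Ctgf cluster, where the list summed to 1934 per 1000000 against 26.6 to 426 in the other clusters. Ctgf was found in 95.5% of its nuclei, Drd1 in 70.5% and Moxd1 in 65.9%. The Foxp2 cluster carried Foxp2 at 675 and Syt6 at 72.6, where no other cluster exceeded 246 and 8.75. The serotonin receptor Htr2a was uneven too, at 209 in the Ctgf cluster and 117 in the Sema3c cluster but 2.62 in the Sntb1 cluster, while Htr1f ranged from 305 to 783. The Ntng2 cluster stood apart, with the upper-layer gene Cux2 at 96.2, the claustral genes Ntng2 at 173 and Gnb4 at 112, and the greatest median depth, 31976 UMIs. Of its 25 nuclei 24.0% were in the top 5% of Scrublet scores, a measure of likeness to doublets, against 0 to 8.16% in the other clusters and 5.03% of Vehicle and 4.81% of OLE members overall. Its score of 1.13 was the lowest cluster median, and the deep-layer label is least certain for it.

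OLE and Vehicle members were compared gene by gene as the log2 ratio of levels, with an exact counting interval. Among 7666 genes with at least 100 UMIs in members, 271 (3.54%) were at least 1.5-fold higher in OLE and 61 (0.796%) at least 1.5-fold lower. Under median-of-ratios scaling the counts were 189 and 99, so that 65.6% of calls were higher instead of 81.6%. The median ratio over these genes was 0.0354 and its quartiles were -0.103 and 0.201, so that more of them lay above 0 than below. Under median-of-ratios scaling that median was -0.0390, so the counts of genes above 0 given below depend on the scaling. The other gated nuclei are set beside the members at each step, and they share the libraries. They include a cluster of 419 nuclei led by Vip, Mgp and Sst, of which 341 were from OLE and 78 from Vehicle and only 4 were members, and the part of that cluster in the ratios of the other gated nuclei was not tested. Of the 271 genes higher in members, 239 had a ratio above 0 in the other gated nuclei, with a median of 0.370. Of the 61 lower, 39 had a ratio below 0 there, with a median of -0.0500. Over all 7665 genes compared, the median ratio in the other gated nuclei was 0.0504. The higher genes thus mostly ran the same way outside the members, with a median above that of all genes, and the lower genes had a median near 0 there.

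Among genes with at least 200 UMIs in members, the largest positive ratio was that of Svil, a membrane-associated actin-binding protein, with 75 UMIs in Vehicle and 237 in OLE members, a log2 ratio of 1.73 (1.35 to 2.13). In the other gated nuclei it was 0.33. Svil rested on 21 Vehicle and 31 OLE nuclei and was mostly in the Ctgf cluster, where it stood at 101 per 1000000 in Vehicle and 265 in OLE. Ctgf itself had 167 and 320 UMIs, a ratio of 1.01 (0.74 to 1.29), and within its cluster stood at 288 and 417 per 1000000. In the 215 members of clusters with at least 90% members, Ctgf had a ratio of -0.18 (-1.35 to 0.97). Bmpr1b, a receptor for bone morphogenetic proteins, had 104 and 224 UMIs and a ratio of 1.18 (0.84 to 1.53), with 0.89 in the other gated nuclei. In the same 215 members Bmpr1b had a ratio of 1.55 (0.84 to 2.31) and Svil, on 5 and 16 UMIs, 1.80 (0.29 to 3.6). The Ctgf cluster held 25 OLE and 19 Vehicle nuclei and the Foxp2 cluster 26 and 13, and the part of that unevenness in these ratios was not tested.

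Of 17 neuropeptide genes 4 were measured. Vgf, a secreted neuropeptide precursor, had 78 UMIs in Vehicle and 169 in OLE, a ratio of 1.19 (0.79 to 1.60), and was found in 54 and 95 nuclei. Pcsk1, the convertase that cleaves such precursors, had 101 and 189 UMIs, a ratio of 0.98 (0.62 to 1.34) beside 0.15 in the other gated nuclei. The difference between members and other gated nuclei was 0.83 (0.47 to 1.20) for Pcsk1 and 0.43 (0.03 to 0.83) for Vgf. These 4, Vgf, Bdnf, Scg2 and Cck, were past 1.5-fold, with a median ratio of 0.98 beside 0.93 in the other gated nuclei. In clusters with at least 90% members their median was 0.53, with Scg2 at -0.17 (-1.15 to 0.80), and in the remaining members 1.27. Nptx1, a secreted pentraxin of excitatory synapses, had 180 and 317 UMIs, a ratio of 0.89 (0.62 to 1.16), with 0.86 elsewhere in the gate.

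Of 5 measured immediate early genes, which neurons induce on activity, 3 were past 1.5-fold and all 5 were above 0. Nr4a3 had 29 and 75 UMIs, a ratio of 1.45 (0.81 to 2.12), and Egr1 had 43 and 89, a ratio of 1.12 (0.58 to 1.68). The same genes had 0.62 and 0.32 in the other gated nuclei. Junb stood at 0.97 (0.38 to 1.59), Nr4a1 at 0.46 (0.17 to 0.75) and Homer1 at 0.27 (0.14 to 0.40). Counts per library were low for most of this list, and 11 of its 16 genes were not measured.

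Protein folding in the endoplasmic reticulum (ER) showed 7 of 19 measured genes past 1.5-fold and 0 in the other direction, with a median ratio of 0.27 in members and 0.50 for the same genes in the other gated nuclei. The ER chaperone Hspa5 had 191 and 307 UMIs, a ratio of 0.76 (0.49 to 1.03), and Hsp90b1 had 253 and 430, a ratio of 0.84 (0.61 to 1.07). Calr, a lectin chaperone that binds calcium, had 231 and 369 UMIs, a ratio of 0.75 (0.51 to 0.99), beside 0.85 in the other gated nuclei. Selenok, Dnajb11, Pdia3 and Hyou1 completed the group. The stress regulators Xbp1, Atf4 and Atf6 were not past the threshold, at 0.39 (-0.11 to 0.90), -0.16 (-0.68 to 0.35) and -0.05 (-0.25 to 0.16).

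Cytosolic chaperones had 0 of 18 genes past 1.5-fold and a median of 0.19. Hsp90ab1 had 312 and 432 UMIs, a ratio of 0.54 (0.33 to 0.76), near its 0.65 in the other gated nuclei. Hspa8, the constitutive Hsp70, had 264 and 362 UMIs and a ratio of 0.53 (0.30 to 0.76) beside 1.10, a difference of -0.57 (-0.81 to -0.33). Apoe, a lipid carrier made mostly by astrocytes, likewise had a smaller ratio in members, 0.58 (0.30 to 0.86) beside 1.28, a difference of -0.69 (-0.98 to -0.41). Its 182 and 259 UMIs in members stand beside an astrocyte marker list that summed to 1024 per 1000000 in Vehicle and 1117 in OLE members, and the part of RNA from other cells in it was not tested.

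All 17 measured cytosolic ribosomal protein genes were above 0 and 7 were past 1.5-fold, with a median of 0.54 beside 0.73 in the other gated nuclei. Rpl8 had 65 and 120 UMIs and Rpl32 46 and 85, both with a ratio of 0.96. After thinning to 6000 UMIs, which leaves fewer genes above the floor, the median of the list was 0.04. Nuclear-encoded genes of the respiratory chain had 14 of 16 above 0 and a median of 0.32, with 1, Ndufa4, past 1.5-fold. Fth1, the ferritin heavy chain that stores iron, had 175 and 351 UMIs, a ratio of 1.08 (0.81 to 1.35), and the ubiquitin gene Ubb 135 and 248, a ratio of 0.95 (0.64 to 1.27). Their ratios in the other gated nuclei were 0.93 and 1.05.

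Mitochondrially encoded transcripts ran against the nuclear-encoded ones in members. All 10 measured genes were lower in OLE with intervals below 0, none by 1.5-fold, at a median of -0.28 and a range of -0.50 to -0.13. In the other gated nuclei the same genes had a median of 0.09. The cytochrome oxidase subunit mt-Co1 had 2008 UMIs in Vehicle and 1530 in OLE, a ratio of -0.32 (-0.41 to -0.22) beside 0.08, and mt-Atp6 had 3323 and 2756, a ratio of -0.20 (-0.27 to -0.12) beside 0.16. The difference from the other gated nuclei had an interval below 0 for all 10. These transcripts made up 0.429% of the UMIs of Vehicle and 0.361% of those of OLE members, but the median share per nucleus was 0.259% and 0.262%. The median ratio of the list was -0.06 after thinning to 6000 UMIs. Such transcripts are made in mitochondria, and the part of RNA from outside the nucleus in their levels was not tested.

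**Figure D4:**
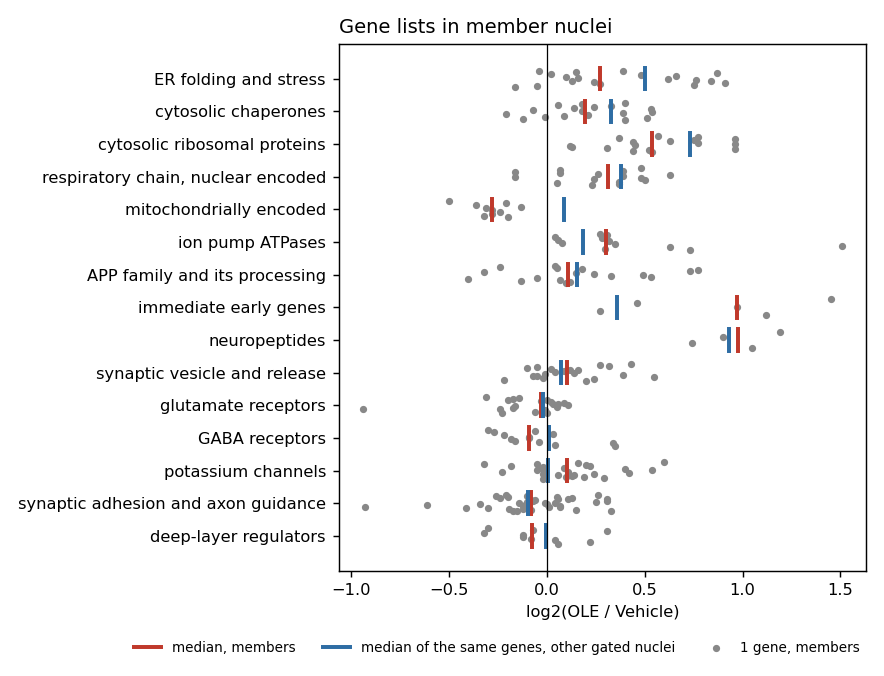
Log2(OLE / Vehicle) of each measured gene of 15 lists in members (grey points), with the median of the list in members (red bar) and of the same genes in the other gated nuclei (blue bar). Mitochondrially encoded genes lie below 0 in members with their other-gated median above it, and glutamate receptor and synaptic vesicle genes center near 0.

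Ion pumps were above 0 in 12 of 12 genes, with a median of 0.30 beside 0.18 elsewhere in the gate and 3 past 1.5-fold. The sodium pump beta subunit Atp1b1 had 809 and 1187 UMIs, a ratio of 0.63 (0.50 to 0.76), and Atp1b2, on 35 and 95 UMIs, a ratio of 1.51 (0.94 to 2.12). The ER calcium pump Atp2a2 had 929 and 1126 UMIs and a ratio of 0.35 (0.23 to 0.48), the same side of 0 as its 0.38 in the other gated nuclei. Of 18 genes of the APP family and its processing, 13 were above 0 and 2 past 1.5-fold. Those were Itm2c, with 481 and 780 UMIs and a ratio of 0.77 (0.61 to 0.94), and Itm2b, with 399 and 627 and 0.73 (0.54 to 0.91), BRI family membrane proteins that bind APP. App stood at 0.24 (0.16 to 0.32), in a library pair that both carry the APP transgene and Bace1, the beta-secretase, at 0.15 (-0.19 to 0.49).

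Cdh20, a cadherin, and Sntb1, a syntrophin, were the remaining genes with large positive ratios beside Spag16, a protein of the ciliary axoneme, and Cst3, a secreted protease inhibitor. Cdh20 had 116 and 212 UMIs, a ratio of 0.94 (0.61 to 1.28) beside -0.22 in the other gated nuclei, but 1 nucleus carried 22.4% of its UMIs in Vehicle and another 33.5% in OLE. Spag16 had 59 and 153 UMIs, of which single nuclei held 37.3% and 27.5%, and its ratio of 1.45 (1.01 to 1.91) was 1.66 without them. Cst3 was more evenly spread, over 97 and 128 nuclei, at 0.94 (0.66 to 1.22) beside 1.03.

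Among the 12 lowest genes, Cntnap5a, a neurexin-family adhesion protein, had 961 UMIs in Vehicle and 478 in OLE, a ratio of -0.93 (-1.09 to -0.77) beside 0.01 in the other gated nuclei, and was found in 125 and 96 nuclei. Its relative Cntnap5c had 366 and 219, a ratio of -0.67 (-0.91 to -0.42) beside 0.27. The serotonin receptor Htr2c had 286 and 154 UMIs, a ratio of -0.82 (-1.11 to -0.53) beside 0.27, a difference of -1.09 (-1.38 to -0.80). Chst9, a sulfotransferase, had 606 and 370, a ratio of -0.64 (-0.83 to -0.45) beside 0.27. The glypican Gpc5 was at -0.68 (-0.90 to -0.46), the RNA-binding protein Bicc1 at -0.80 (-1.19 to -0.41), Ice2, of the little elongation complex, at -0.80 (-1.24 to -0.38) and the cation channel Trpc4 at -0.65 (-1.03 to -0.27). With the score threshold lowered to 0.75 the ratios were -0.38 for Cntnap5a, -0.25 for Htr2c and -0.32 for Gpc5, and with it raised by 0.25 that of Gpc5 was -0.08.

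For some of the lowest genes a single nucleus weighed heavily. Nxph1, a neurexin ligand abundant in interneurons, had 196 and 86 UMIs and a ratio of -1.11 (-1.50 to -0.74), but 1 Vehicle nucleus held 49.0% of its UMIs, and without the top nucleus of each library the ratio was -0.30. Ntng1, a netrin-G adhesion protein, had 409 and 217 UMIs, of which 305 and 120 lay in the Ntng2 cluster, and its ratio of -0.84 (-1.08 to -0.60) was -0.45 without the top nuclei. Epha6, an ephrin receptor, and Fam19a2 had ratios of -0.61 (-0.79 to -0.44) and -0.66 (-0.86 to -0.45), which were -0.35 and -0.45 without them. With the score threshold raised by 0.25 the ratios were 0.04 for Nxph1 and 0.01 for Ntng1, and with it lowered to 0.75 those of Epha6 and Fam19a2 were 0.21 and -0.05.

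**Figure D5:**
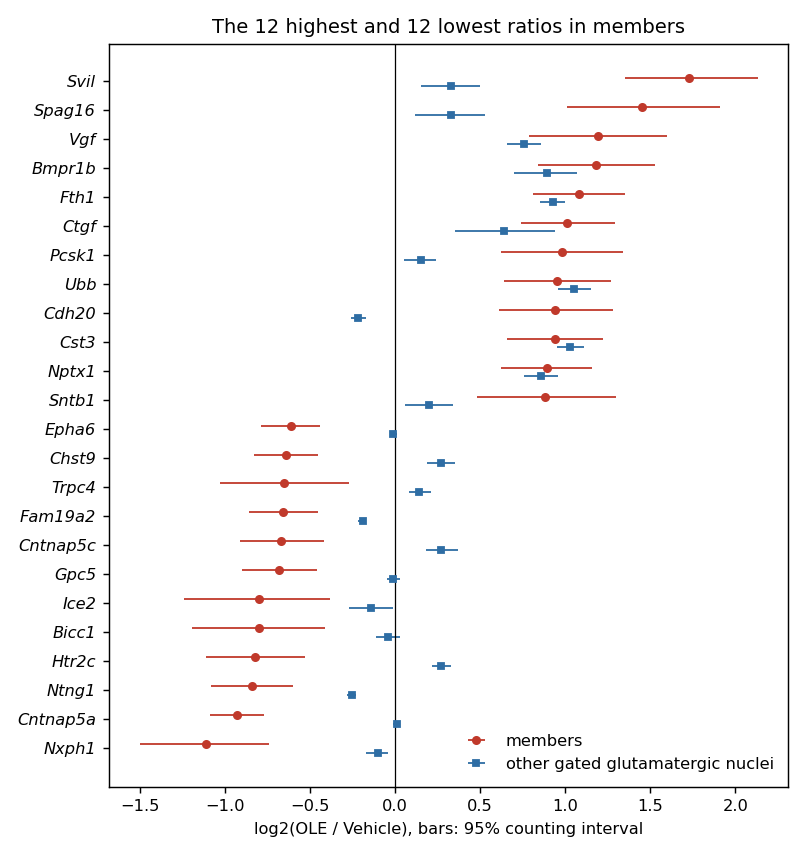
Log2(OLE / Vehicle) of the 12 genes with the highest and the 12 with the lowest ratios among genes with at least 200 UMIs in members, with members as circles and other gated nuclei as squares, and bars for the 95% counting interval. Svil lies at 1.73 and Nxph1 at -1.11 in members, and the 12 lowest genes lie between -0.25 and 0.27 in the other gated nuclei.

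The lists of deep-layer regulators, receptors, channels, vesicle genes and adhesion genes had medians between -0.09 and 0.11. Of 10 measured deep-layer regulators 0 were past 1.5-fold in either direction, with a median of -0.07. Tle4 had 2062 and 1869 UMIs, a ratio of -0.07 (-0.16 to 0.02), and Zfpm2 5801 and 4463, a ratio of -0.30 (-0.36 to -0.25). All 5 measured upper-layer regulators were above 0, 4 with intervals above 0 and 1 past 1.5-fold. The median of these upper-layer genes was 0.35, beside -0.09 in the other gated nuclei. It was 0.06 in the 215 members of clusters made up almost wholly of members, and 0.42 in the remaining members. The rule genes ranged from -0.17 (-0.28 to -0.06) for Cobll1 to 0.21 (0.07 to 0.34) for Sulf1. Members were chosen on these same genes, so their ratios describe the choice and are no finding. Glutamate receptors had 1 of 21 past 1.5-fold, Grik1, which was lower, and a median of -0.03. Of 14 measured receptors for monoamines, acetylcholine and peptides, 2 were higher and 1, Htr2c, was lower, with a range of -0.82 to 0.77 and a median of 0.04. GABA receptors had 0 of 13 and -0.09, sodium and calcium channels 0 of 17 and 0.00, synaptic vesicle genes 0 of 20 and 0.11, and synaptic adhesion and guidance genes 2 of 38, both lower, and -0.08. Among 26 potassium channel genes, Kcnt2 was past 1.5-fold, with 437 and 630 UMIs and a ratio of 0.60 (0.42 to 0.78) beside -0.18. Kcnip4 had 12312 and 15467 UMIs, a ratio of 0.40 (0.37 to 0.44) beside -0.06, a difference of 0.47 (0.43 to 0.50).

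RNA of other cell types was measured in the same members. Oligodendrocyte markers summed to 161 per 1000000 in Vehicle and 312 in OLE members, and 4 of 4 measured were past 1.5-fold, with a median of 0.97 beside 0.11 in the other gated nuclei. The myelin gene Mbp had 188 and 327 UMIs. The list stood at 80.7 in Vehicle and 627 in OLE in the Ctgf cluster, and its median ratio was 0.51 in clusters with at least 90% members and 1.32 in the rest. Without the top 5% of Scrublet scores the median was 0.37. Microglial markers summed to 102 and 142, of which Cst3 was past 1.5-fold, and endothelial and mural markers to 5.74 and 18.9 with none measured. GABAergic markers summed to 207 and 172, and none of 3 measured was above 0. Their median of -0.27 was 0.24 at a score threshold of 0.75 and 0.31 with z-scores in each library. The claustral list had 3 of 5 past 1.5-fold, and its median of 0.63 was -0.14 after thinning. It was led by Gnb4 on 28 and 93 UMIs and Ntng2 on 55 and 132, both mostly in the Ntng2 cluster. Gnb4 was found in only 8 and 12 nuclei and Ntng2 in 9 and 19. Single nuclei held 60.7% and 41.9% of the Gnb4 UMIs and 38.2% and 34.1% of the Ntng2 UMIs. Without the top nucleus of each library the ratios were 2.38 for Gnb4 and 1.44 for Ntng2. The part of RNA from other cell types in the ratios above was not tested.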

How the data were processed

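The data are 2 single-nucleus libraries (10x Genomics 3′ v3), each pooled from 5 male APP/PS1 mice. The authors aligned reads with Cell Ranger 3.0.1 to the mm10 pre-mRNA reference, which counts intronic reads, and deposited UMI counts of 31053 genes per nucleus without normalization. Per their methods doublets were removed in Seurat 4.0.4, with no caller named. Scrublet in scanpy 1.11.5 called 7 and 14 nuclei here (0.104% and 0.227%), too few to use, so no nucleus was removed and leaving out the top 5% of scores was tried. Libraries held 6745 (Vehicle) and 6173 (OLE) nuclei with 70845739 and 69485537 UMIs, and no column of another sample.

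Members followed the stated gate and score, with log1p of counts per 10000 standardized over all gated nuclei. Levels are sums of UMIs over nuclei relative to all their UMIs. Ratios have exact conditional binomial intervals and shares Clopper-Pearson intervals. Differences of ratios have normal intervals from Poisson variances. All are at 95% and cover counting error only. With 1 library per group there was no test, and 1.5-fold was the size rule. Leiden clustering used leidenalg 0.10.2. A floor of 100 UMIs defined measured genes in ratios and 200 in levels. Named genes were the rule genes, the list genes, cluster leaders, and genes the study draws for neurons. The 12 highest and 12 lowest ratios at 200 UMIs or more were added, as were the 15 highest and 10 lowest folds. Folds were ranked by the library with the weaker contrast. Lists came from general knowledge. Some list genes are not reported here. Members and lists were chosen with earlier results of these data known. Gene positions are GENCODE on GRCm38, matched for 30934 identifiers (99.6%), and promoter windows are RefSeq. Calculations were tested on simulated data. They ran in Python 3.11.15 with pandas 2.3.3, scipy 1.17.1, matplotlib 3.10.9 and numpy 2.4.6.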

Additional observations from a re-analysis of the deposited data

How the results depend on the processing

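No paired analysis was possible because there was 1 library per condition. Against 271 genes higher and 61 lower in OLE members (81.6% of calls higher), the counts were 354 and 49 (202 and 20 shared) at a score threshold of 0.75, 226 and 63 (160 and 27) at a threshold raised by 0.25, 261 and 69 (225 and 46) with a gate of 10000 UMIs, 325 and 45 (262 and 41) with z-scores in each library, 235 and 65 (202 and 42) without the top 5% of Scrublet scores, and 303 and 69 (204 and 38) for means over nuclei. Median-of-ratios scaling gave 189 and 99 (65.6% higher), and moved the median of all genes from 0.0354 to -0.0390. Thinning to 6000 UMIs left 3678 genes with 99 higher and 30 lower, of which 32 and 6 were shared. A floor of 50 UMIs gave 572 and 178 of 9805 genes, and 400 UMIs 43 and 9 of 3194. The genes measured numbered 8461 at 0.75, 6985 at the raised threshold, 7515 with the 10000 gate, 7715 with separate z-scores and 7424 without top Scrublet scores. Median-of-ratios scaling and means over nuclei kept the 7666 genes of the main setting. Keeping only clusters with at least 90% members, chosen after seeing the data, left 111 Vehicle and 104 OLE nuclei. Of 5780 genes measured there, 153 were higher and 52 lower, of which 65 and 14 were shared.

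The ER list median of 0.27 was 0.48 at a threshold of 0.75, 0.39 without top Scrublet scores, 0.20 under median-of-ratios, 0.38 thinned, 0.39 at 50 UMIs and 0.75 at 400 UMIs. The ribosomal median of 0.54 was 0.70 at 0.75, 0.66 at 50 UMIs and 0.04 thinned. The mitochondrially encoded median of -0.28 stayed below 0, at -0.19 at 0.75, -0.18 at the raised threshold, -0.41 with the 10000 gate, -0.19 with separate z-scores, -0.34 without top Scrublet scores, -0.35 under median-of-ratios, -0.06 thinned and -0.12 for means over nuclei. The oligodendrocyte median of 0.97 was 0.68 at 0.75, 1.16 with the 10000 gate, 0.37 without top Scrublet scores, 0.70 thinned, 0.82 for means over nuclei, 0.75 at 400 UMIs and 0.18 in the 90% clusters with the floor of 100 UMIs applied anew.

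Signs turned for Epha6 (0.21 at 0.75), Nxph1 (0.04 at the raised threshold, 0.31 with separate z-scores), Ntng1 (0.01 at the raised threshold, 0.22 without top Scrublet scores) and the claustral list (-0.14 thinned). In the 90% clusters they turned for Ctgf (-0.18) and the layer 6b list (-0.38). That list value came from Inpp4b alone, the only gene of the list above the floor of 100 UMIs applied anew there. All 5 layer 6b genes measured in members had a median of -0.18 in those clusters. The GABAergic median of -0.27 was 0.24 at 0.75, 0.03 at the raised threshold and 0.31 with separate z-scores. The cause was not tested. Of 352 gene values under the alternatives 309 stayed within their interval, 37 moved further and 6 turned. The alternatives include the lower and the higher UMI floor, which change the genes counted but not the ratio of a gene. Part of the 309 was therefore fixed in advance and says nothing about stability. The list medians were less stable. Of 406 such values 231 stayed within the counting error of the summed list, 173 moved further and 2 turned, counting turns only for medians past 1.5-fold. Depth limits genes under 100 UMIs, and with 1 pool per condition, differences between mice or libraries and treatment cannot be told apart.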
